A study of Mus musculus with 15 samples.

Results

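Adipocyte genes were followed in mouse hearts 48 h after induction of sepsis. The set was named by gene: Adipoq, Retn, Lep and Cfd, which encode secreted adipokines, and Fabp4, Aqp7, Cidec and Car3, which encode proteins of the fat cell itself. Members were found as every probe set paired with exactly 1 of these 8 symbols. This gave 12 of the 20380 probe sets that name 1 gene, and 7 of 12393 genes. Fabp4 had 4 probe sets, Aqp7 and Car3 had 2 each, and Adipoq, Retn, Cidec and Lep had 1 each. Cfd, which encodes the serine protease adipsin, had 0 and was not analysed here.

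The study compared total RNA of whole hearts from C57/BL6 wild-type mice and from the congenic iNOS KO strain B6.129P2-Nos2tm1Lau/J, which lacks inducible nitric oxide synthase. Each strain had sham surgery, in which the caecum was only mobilised, or caecal ligation and perforation (CLP), which releases gut bacteria into the abdomen. Wild-type CLP hearts carried the labels Min Dep and Max Dep, which are not spelled out; the series title speaks of myocardial depression, and contractility was recorded before the hearts were taken. There were 3 arrays in each of the 5 groups (wild-type sham, Min Dep and Max Dep, knockout sham and CLP), 15 in all. Every mouse, sham included, received isoflurane, buprenorphine, saline and, before recording, ketamine with xylazine. Ages and sexes were not given in the sources used here. Nothing states that the arrays of a group are separate litters or cages, so p-values measure only the spread between these arrays.

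White adipocytes store triglyceride in 1 large lipid droplet and release fatty acids and glycerol from it on demand. They also secrete adipokines into the blood, among them adiponectin, leptin and resistin. The heart is surrounded by epicardial and pericardial fat, and how much of it stays attached at dissection can vary from heart to heart. Fabp4 and Aqp7 are also expressed by capillary endothelium, whereas Adipoq and Lep are more restricted to fat. In whole-heart RNA, fewer cells of a type and less RNA per cell cannot be told apart.

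The 2 genotypes were deposited in separate tables, on different array models and scales, and were not compared with each other by a test. Wild-type values are standardised scores: every array has a mean of 0 and an SD of 1.0, so a difference is in standardised units and gives no fold. Knockout values run from -7.78 to 8.18 and behave as log differences from a centre for each probe set, with the base of the log not given. Neither scale allows the level of one gene to be set against another, or the loss of Nos2 to be checked against wild type. Knockout CLP replicate 1 had an SD of 0.683 over probe sets, against at least 0.978 on the other knockout arrays. It lay between the other CLP arrays in 76.0% of probe sets, so it was left out of the knockout fit, and values with it are given as well. Such an array narrows the spread within its group, so p-values and calls from the fit with it can be too strong. On the wild-type sham array numbered 1, Xist stood at 2.64, against at most -0.17 on the other 8 arrays, and Eif2s3y at -2.48, so this array's sex-linked genes differ from those of the other sham hearts. On knockout sham replicate 2, Xist was at -6.36 and Eif2s3y at 5.76. On knockout CLP replicate 1, Xist was at -3.23 but Eif2s3y was not raised, at -0.06.

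Promoters of the members are shown first, as sequence only, and their part in the values was not tested. Of the 8 members, 6 have a promoter in the RefSeq table used (GRCm38.p6), which spans 250 bases before to 50 after each start. Fabp4 and Car3 have none there. Each window was searched on both strands for the letters AGGTCA, an element read by nuclear receptors such as PPARG. It was also searched for the C/EBP core, spelled TTGCNNAA. The third search was for the TATA box, spelled TATAAA. The last was for the CCAAT box, spelled as its name. No motif overlapped another in the windows printed, and matches are in capitals. Over all 32851 promoters of this length the shares with a match were 16.3%, 10.8%, 13.6% and 37.4%. Adipoq lies at chr16:23146286-23146585 on the plus strand, Aqp7 (the second start listed) at chr4:41047913-41048212 on the minus strand, and Cidec (the second start listed) at chr6:113434715-113435014 on the minus strand.
Adipoq: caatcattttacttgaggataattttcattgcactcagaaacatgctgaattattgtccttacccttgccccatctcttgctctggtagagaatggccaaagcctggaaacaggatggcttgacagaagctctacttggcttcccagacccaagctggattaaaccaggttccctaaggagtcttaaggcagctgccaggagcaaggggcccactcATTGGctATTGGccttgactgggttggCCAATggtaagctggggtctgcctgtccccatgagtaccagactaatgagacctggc
Aqp7: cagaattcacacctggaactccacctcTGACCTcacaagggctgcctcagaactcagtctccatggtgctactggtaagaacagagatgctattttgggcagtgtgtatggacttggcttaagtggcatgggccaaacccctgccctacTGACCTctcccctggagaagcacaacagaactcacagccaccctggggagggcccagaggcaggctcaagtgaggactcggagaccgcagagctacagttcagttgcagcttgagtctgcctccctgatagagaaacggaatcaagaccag
Cidec: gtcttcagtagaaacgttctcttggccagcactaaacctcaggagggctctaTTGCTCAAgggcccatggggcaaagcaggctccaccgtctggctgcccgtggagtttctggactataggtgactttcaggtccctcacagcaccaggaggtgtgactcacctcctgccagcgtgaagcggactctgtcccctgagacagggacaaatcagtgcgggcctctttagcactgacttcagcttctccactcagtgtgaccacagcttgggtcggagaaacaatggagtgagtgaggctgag
The Adipoq window held 3 CCAAT matches and the Aqp7 window 2 AGGTCA matches, of which 1 also lies in the window of the other listed Aqp7 start. The Cidec window held 1 TTGCNNAA match, as did that of Lep (chr6:29059971-29060270, plus strand), and the first listed Cidec start (chr6:113435711-113436010, minus strand) held none of the 4 motifs. The windows of Retn (chr8:3655520-3655819, plus strand) and Cfd (chr10:79890603-79890902, plus strand) held none either. A match describes the letters and shows no binding.

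In wild-type hearts, none of the 7 measured members passed the test for CLP against sham, yet 6 of 7 differences were below 0. The largest were those of Retn, Cidec, Adipoq and Car3, all between -1.54 and -1.95 standardised units. The background was 0.718% of all genes called at an adjusted p under 0.05 by limma (89 of 12393). At an unadjusted p under 0.05, 3 of 7 members passed (Retn, Cidec and Adipoq) against 18.6% of all genes. The median difference of the members was -1.54 and that of all genes 0.02, with 49.2% of all genes below 0.

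Retn encodes resistin, an adipokine first described in mouse fat. Its standardised values were 0.91, 1.47 and 1.47 on the sham arrays, -0.50, -0.13 and -1.05 on the Min Dep arrays, and -1.35, -1.21 and 0.21 on the Max Dep arrays. Every CLP array therefore lay below every sham array. With probe sets averaged by gene, this held for Retn alone among the 7 members and for 6.11% of all genes. The CLP minus sham difference was -1.95 ± 0.42 (SE; 95% interval -2.98 to -0.93), with a limma adjusted p of 0.0886. It ranked 126 by size among 12393 genes. With any 1 array left out, the difference stayed between -2.20 and -1.81, and the smallest adjusted p was 0.0789.

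Adipoq encodes adiponectin, the most abundant protein that adipocytes secrete. On the sham arrays its standardised values were -0.39, 1.95 and 1.56. On the Min Dep arrays they were -0.24, -0.15 and -0.61, and on the Max Dep arrays -1.53, -0.84 and 0.13. Sham replicates 2 and 3 stood above all 6 CLP arrays, whereas sham replicate 1 lay inside the CLP range, so the groups overlapped. The difference was -1.58 ± 0.62 (SE; limma adjusted p = 0.257).

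Car3, carbonic anhydrase of fat and slow muscle, showed the same split. Its standardised values were -0.54, 1.83 and 1.76 in sham, -0.30, -0.13 and -0.54 for Min Dep and -1.37, -0.89 and 0.10 for Max Dep. The difference was -1.54 ± 0.64 (SE; limma adjusted p = 0.272), and both of its probe sets gave it, at -1.50 and -1.58. Cidec encodes a protein of the lipid droplet surface that helps droplets fuse. Its standardised values were -0.30, 1.91 and 1.75 in sham, -0.24, -0.29 and -0.85 for Min Dep and -1.25, -0.87 and -0.01 for Max Dep. The difference was -1.71 ± 0.58 (SE; limma adjusted p = 0.201), again with sham replicate 1 inside the CLP range.

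Adipoq, Car3 and Cidec thus traced nearly one profile over the 9 wild-type arrays. Pearson's r was 0.99 for Adipoq with Car3, and 0.99 for Cidec with each of them. The points share arrays and the standardisation, and sham replicates 2 and 3 form a group apart from the rest. Without those 2 arrays, r over the remaining 7 was 0.99 for Adipoq with Car3, 0.96 for Adipoq with Cidec and 0.93 for Car3 with Cidec. Retn followed less closely, at 0.88 with Adipoq over 9 arrays and 0.70 over 7. No p-value is given, since these are descriptions within one small table.

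**Figure D1:**
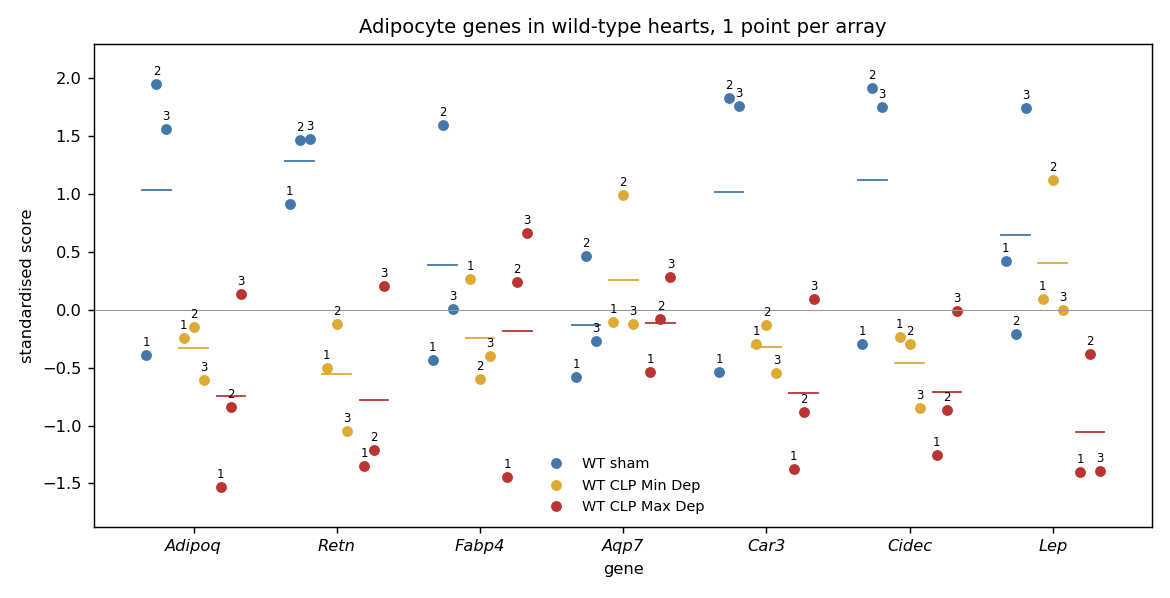
Standardised score (vertical axis) of the 7 measured adipocyte genes (horizontal axis) on the 9 wild-type arrays; each point is 1 array, the number is its replicate and the short line is the group mean of 3 arrays. For Adipoq, Car3 and Cidec, sham replicates 2 and 3 lie above all CLP arrays and sham replicate 1 lies among them, while all 3 sham arrays of Retn lie above CLP.

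The size of these differences varied with the sham array that was left out. Without sham replicate 1, the CLP minus sham difference was -2.29 for Adipoq, -2.32 for Car3 and -2.42 for Cidec. Without sham replicate 2, it was -1.12, -1.13 and -1.31. No member passed with any 1 array left out: the smallest limma adjusted p over these fits was 0.136 for Adipoq, 0.119 for Car3 and 0.106 for Cidec. The mean over the 7 members was -0.13, 1.29 and 1.15 on the sham arrays, -0.15, 0.12 and -0.51 on the Min Dep arrays and -1.27, -0.58 and 0.00 on the Max Dep arrays. Sham replicate 1, which has the high Xist value, is thus also the sham array with the lowest mean over the members. Not every member was low there: Retn was at 0.91, above all CLP arrays, and Lep at 0.42, above sham replicate 2. The part of sex in these values was not tested. At the other end, Max Dep replicate 1 was the lowest array for 6 of 7 members.

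Lep encodes leptin, the satiety hormone. Its standardised values were 0.42, -0.21 and 1.74 in sham, 0.09, 1.12 and 0.00 for Min Dep and -1.40, -0.38 and -1.39 for Max Dep. It did not share the profile of Adipoq (r = 0.46 over 9 arrays), and sham replicate 2, high in the other members, was the lowest sham array for Lep. CLP minus sham was -0.98 ± 0.54 (SE; limma adjusted p = 0.399).

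Fabp4, the fatty acid carrier of adipocytes, macrophages and capillary endothelium, gave the mean standardised values -0.44, 1.59 and 0.01 in sham, 0.26, -0.60 and -0.40 for Min Dep and -1.45, 0.24 and 0.66 for Max Dep. Its CLP minus sham difference was -0.60 ± 0.66 (SE; limma adjusted p = 0.693). The 4 probe sets did not agree in sign: 1417023_a_at gave -1.74, 1451263_a_at -1.01 and 1424155_at -0.72, whereas 1425809_at gave 1.06. On 1417023_a_at every CLP array lay below every sham array, by a narrow margin. Its highest CLP value was 0.182 (Max Dep replicate 3) and its lowest sham value 0.194 (replicate 1). Aqp7, the channel through which glycerol leaves fat cells, gave -0.58, 0.46 and -0.27 in sham, -0.11, 0.99 and -0.12 for Min Dep and -0.54, -0.08 and 0.28 for Max Dep. The difference was 0.20 ± 0.38 (SE; limma adjusted p = 0.832), the mean of -0.81 from 1418848_at and 1.21 from 1418849_x_at. For these 2 genes the wild-type mean therefore joins probe sets that point in opposite directions, none of which passed the test.

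The separate septic groups gave no member past the test either. For Max Dep against sham, 0 of 7 members were called (background 0.452% of genes), and 4 of 7 had an unadjusted p under 0.05 (Retn, Adipoq, Cidec and Lep; background 16.7%). The differences of these 4 were -2.07 ± 0.49, -1.78 ± 0.72, -1.83 ± 0.67 and -1.71 ± 0.62 (SE). For Min Dep against sham, 0 of 7 were called (background 0.0565%), and Retn alone had an unadjusted p under 0.05 (1 of 7; background 16.4%), at -1.84 ± 0.49. Both comparisons use the same 3 sham arrays. For Max Dep against Min Dep, 0 of 7 were called (background 0% by limma's adjusted p), and 0 of 7 had an unadjusted p under 0.05 (background 9.81%). Lep came nearest, at -1.46 ± 0.62 (SE; 95% interval -2.98 to 0.05; limma adjusted p = 0.516). The other 6 members lay between -0.41 (Adipoq) and 0.06 (Fabp4) in this comparison.

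In knockout hearts the order of the members was different: Fabp4 and Aqp7 stood far lower after CLP, while Adipoq did not. In the fit of 2 CLP and 3 sham arrays, 0 of 7 members were called by limma's adjusted p, as was 0% of all genes. At an unadjusted p under 0.05, 3 of 7 passed (Aqp7, Fabp4 and Cidec) against 11.9% of all genes. The same 3 had all 3 CLP arrays, replicate 1 included, below all sham arrays, which held for 12.7% of all genes. The median difference of the 7 members was -1.54, against 0.03 over all genes.

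Fabp4 had knockout values of 2.19, 1.62 and 1.43 log units in sham and -4.22, -2.31 and -5.33 in CLP, the first CLP value being that of replicate 1. The groups were separated by more than the whole span of the sham arrays. The difference without replicate 1 was -5.56 ± 0.89 (SE; 95% interval -7.70 to -3.43), with a limma adjusted p of 0.0924. By size it ranked 5 among 12393 genes. With replicate 1 included, it was -5.70, with a limma adjusted p of 0.0266.

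Aqp7 had knockout values of 0.80, 1.07 and 2.25 in sham and -3.53, -3.62 and -3.82 in CLP. Its difference without replicate 1 was -5.09 ± 0.56 (SE; 95% interval -6.43 to -3.75; limma adjusted p = 0.0820), and it ranked 17 by size. With replicate 1 it was -5.03, with a limma adjusted p of 0.0181. The 6-array fit thus called both genes, 2 of 7 members, among 295 genes or 2.38% of all. The fit without replicate 1 called 0 genes, so these calls rest on including that array. Unlike in wild type, every probe set pointed one way: the 4 of Fabp4 gave -5.23 to -5.88 and the 2 of Aqp7 gave -4.43 and -5.75. Leaving out any 1 of the 5 fitted arrays gave -7.08 to -4.05 for Fabp4 and -5.38 to -4.66 for Aqp7, with smallest limma adjusted p-values of 0.177 and 0.169.

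**Figure D2:**
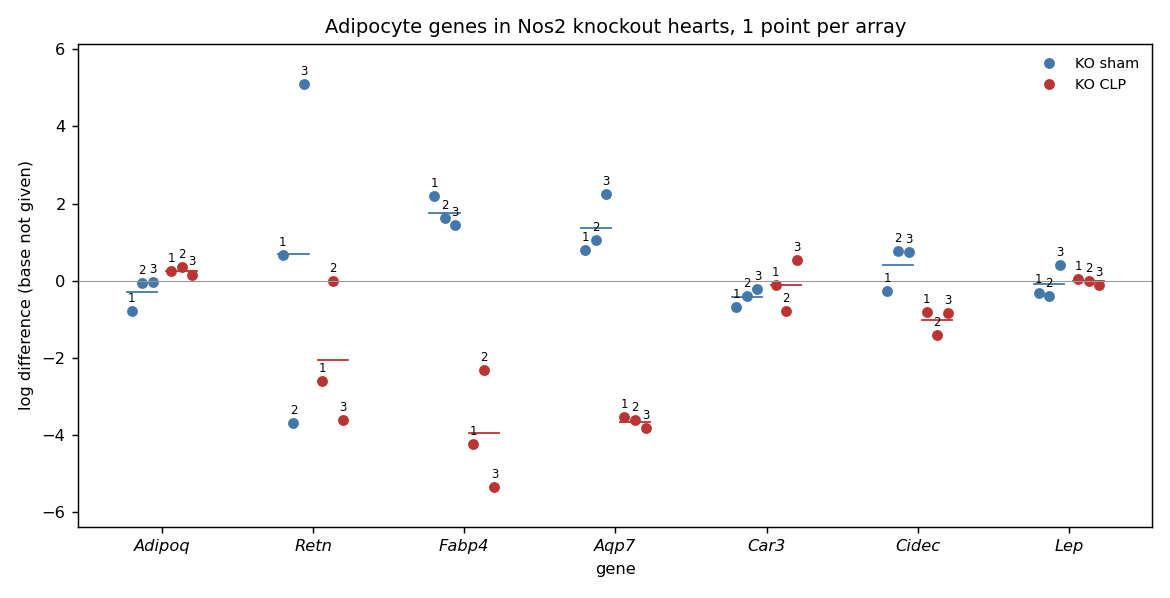
Log difference from the centre of each probe set, base not given (vertical axis), of the 7 measured adipocyte genes (horizontal axis) on the 6 knockout arrays; each point is 1 array, the number is its replicate and the short line is the mean of 3 arrays, CLP replicate 1 included. Fabp4 and Aqp7 separate CLP from sham by several units, Retn spreads over 8.79 units without separating them, and Adipoq and Lep move by 1.14 and 0.82 units over all arrays.

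**Figure D3:**
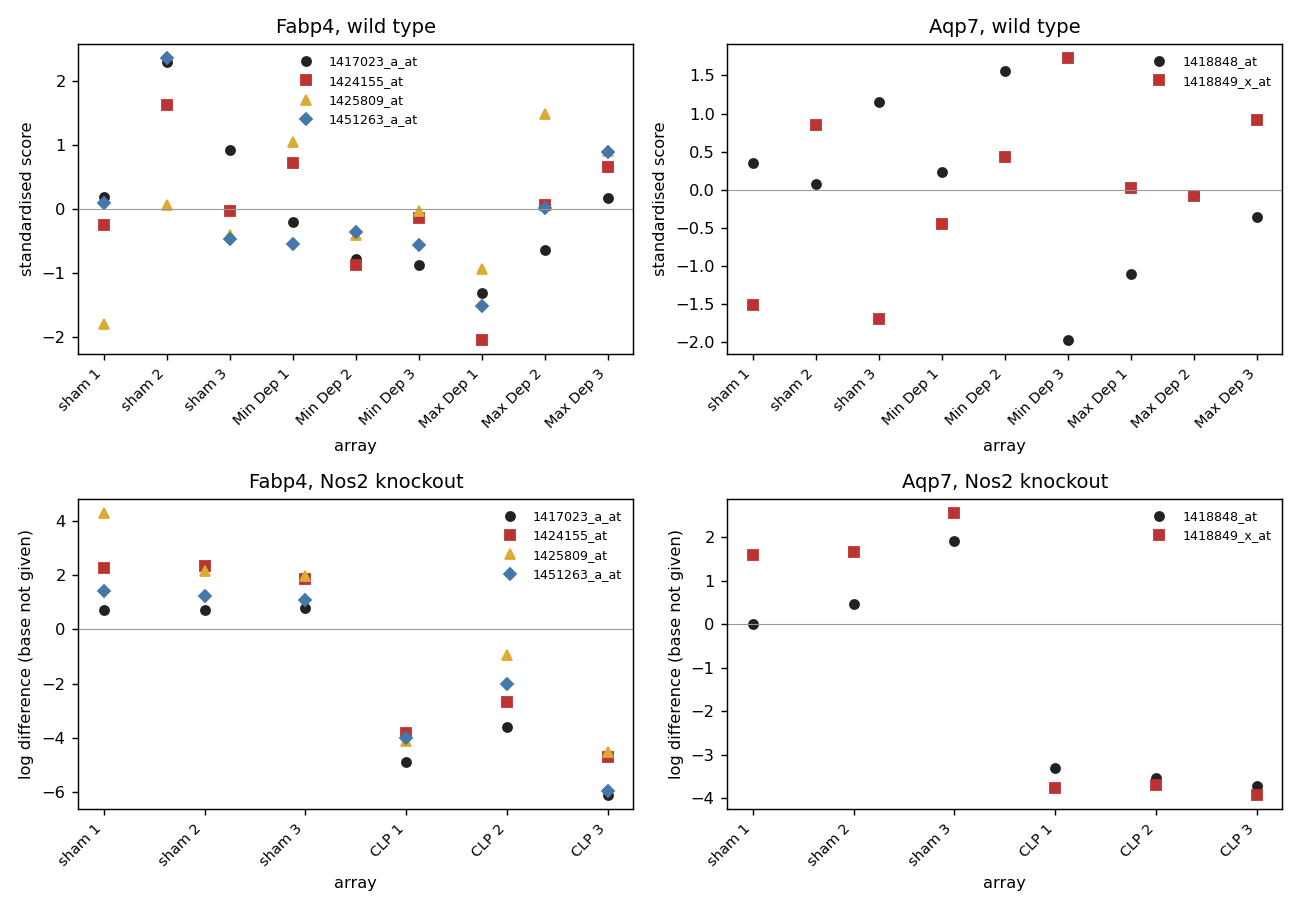
Values (vertical axis: standardised score above, log difference below) of the 4 Fabp4 and 2 Aqp7 probe sets on each array (horizontal axis) in wild-type (top) and knockout (bottom) hearts; each symbol is 1 probe set. In the knockout table all 6 probe sets lie lower on every CLP array than on every sham array, and in wild type the probe sets of each gene scatter around 0 and differ in direction.

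Cidec, the droplet protein, had knockout values of -0.28, 0.77 and 0.74 in sham and -0.81, -1.40 and -0.85 in CLP. Its difference was -1.54 ± 0.52 (SE; limma adjusted p = 0.308), and with replicate 1 it was -1.43 (limma adjusted p = 0.120). Cidec was the only member with an unadjusted p under 0.05 and a lower value after CLP in both genotypes, although it passed the adjusted test in neither.

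None of the 3 measured adipokines was lower after CLP beyond its spread. Adipoq had -0.79, -0.07 and -0.03 in sham and 0.24, 0.35 and 0.16 in CLP, a higher mean after CLP, opposite to the sign in wild type. Every CLP array of Adipoq lay above every sham array, and the share of all genes for which this held was not counted. The difference was only 0.55 ± 0.45 (SE; limma adjusted p = 0.724), and the whole span of the gene over 6 arrays, 1.14 units, was at percentile 28.2 of all genes, whose median span was 1.61. Retn had 0.66, -3.69 and 5.09 in sham and -2.59, 0 and -3.60 in CLP. Its span of 8.79 units was at percentile 99.9, and the spread lay inside the sham group, whose lowest array (replicate 2) is the one with low Xist. The difference of Retn was -2.48 ± 2.45 (SE; limma adjusted p = 0.787), ranging from -4.67 to -0.28 when 1 array was left out. Lep had -0.30, -0.40 and 0.42 in sham and 0.04, 0.01 and -0.10 in CLP, a difference of 0.05 ± 0.45 (SE; 95% interval -1.05 to 1.14). Car3 had -0.68, -0.39 and -0.22 in sham and -0.11, -0.78 and 0.54 in CLP, a difference of 0.31 ± 0.53 (SE; limma adjusted p = 0.888). With CLP replicate 1 in the fit, the differences were 0.55 for Adipoq, -2.75 for Retn, 0.08 for Lep and 0.31 for Car3, and none of these 4 passed (limma adjusted p from 0.415 to 0.927).

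The close tie of Adipoq, Car3 and Cidec seen in wild type was not seen in the knockout table. Over its 6 arrays r was 0.33 for Adipoq with Car3, -0.40 for Adipoq with Cidec and -0.02 for Car3 with Cidec. Adipoq and Car3 spanned only 1.14 and 1.32 units there, below the median of 1.61 over all genes. These r values therefore rest on little variation and do not show that a tie was lost. Fabp4 went with Aqp7 (r = 0.93) and Cidec with Aqp7 (r = 0.91), where the arrays fall into CLP and sham. The difference between tables was not tested, since scale, array model and genotype cannot be told apart.

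**Figure D4:**
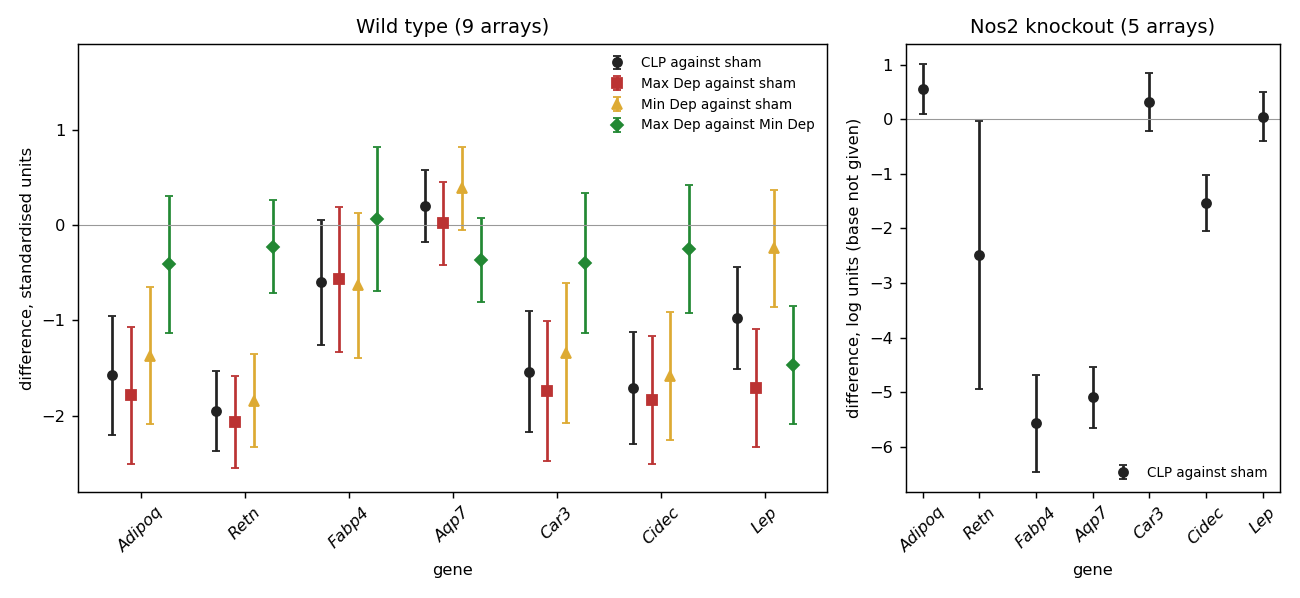
Difference between groups (vertical axis; point, with SE as the bar) for the 7 measured adipocyte genes (horizontal axis): 4 wild-type comparisons in standardised units on the left, and knockout CLP against sham in log units (5 arrays) on the right. In wild type Adipoq, Retn, Car3 and Cidec are lowest against sham and Max Dep minus Min Dep lies between -0.41 and 0.06 except for Lep (-1.46), whereas in the knockout Fabp4 (-5.56) and Aqp7 (-5.09) are lowest.

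Other genes of white adipocytes lay mostly below 0 in wild-type CLP and spread to both sides of 0 in knockout CLP. Of 41 listed, 35 were measured, and in wild-type CLP against sham 0 rose, 0 fell and 29 of 35 had a difference below 0 (median -1.11, against 0.02 over all genes). The share of all genes below 0 was 49.2%. Scd1, the fatty acid desaturase, was at -1.93, Adig, an adipogenesis factor, at -1.84, Cebpa, a transcription factor of adipocyte differentiation, at -1.55, Lipe, the hormone-sensitive lipase, at -1.53 and Pparg, the master regulator of the adipocyte, at -1.45. The limma adjusted p-values of these 5 ran from 0.0962 to 0.307. Plin4, which coats lipid droplets, was at 0.50 and Pnpla2, the first lipase of the droplet, at 0.27. Lpl, the lipoprotein lipase that heart muscle also makes, was at 1.37. Plin1 and Adrb3 were not measured. The mean of the list per array was 0.00, 1.19 and 0.76 in sham and from -0.52 to -0.06 in CLP, so that sham replicates 2 and 3 were the high arrays here as well.

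In knockout CLP against sham the 35 genes had a median of 0.11 (all genes 0.03), with 15 below 0 and 0 past the test, and 8 of 35 had an unadjusted p under 0.05 (all genes 11.9%). The lowest of the list were Angptl4, an inhibitor of lipoprotein lipase, at -4.26 ± 1.16 and Cav1, the caveolin of fat and endothelium, at -3.59 ± 0.88 (SE), both chosen for mention after their values were seen (limma adjusted p = 0.217 and 0.188). Other low genes were Pparg at -3.39 ± 1.10, Lipe at -3.18 ± 0.71, Plin4 at -2.75 ± 0.51, Pck1 at -2.59 ± 0.57 and Pnpla2 at -2.53 ± 0.79 (SE), with limma adjusted p-values from 0.110 to 0.290. Cebpa was at 0.51, Scd1 at 0.50, Adig at -0.22 and Lpl at 1.26. The mean of the list per array ran from 0.09 to 0.22 in knockout sham. In knockout CLP it ran from -0.41 to -0.28, replicate 1 included, so the groups did not overlap although the median difference was near that of all genes. In the fit with CLP replicate 1, 2 of 35 fell, Plin4 (-2.61, limma adjusted p = 0.0349) and Pck1, which makes glycerol for triglyceride (-2.60, limma adjusted p = 0.0426).

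Markers of brown and beige fat were also read, since fat near the heart can hold such cells. Of 9 measured, 6 were below 0 in wild-type CLP (median -1.29), against 49.2% of all genes, and 0 were past the test. Cox8b at 1.23, Zic1 at 0.58 and Tbx1 at 0.17 were above 0. Ucp1, the uncoupling protein that defines brown fat, was 0.21, 2.11 and 1.35 on the sham arrays and at most 0.10 on the CLP arrays, a difference of -1.86 ± 0.51 (SE; limma adjusted p = 0.139). Cidea, a relative of Cidec in brown fat, was at -1.41 ± 0.71. In the knockout table Ucp1 was at 0.19 and Cidea at -0.10, and the median of the 9 genes was 0.19. Tbx1 was the lowest of them there, at -2.52 ± 0.88 (SE, limma adjusted p = 0.325).

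None of the 4 adipokine receptors passed the test in any of the 5 comparisons. Adipor1 and Adipor2, the adiponectin receptors of muscle and liver, were at 1.29 ± 0.31 and 0.74 ± 0.75 in wild-type CLP against sham (SE; limma adjusted p = 0.109 and 0.665). Cdh13, the T-cadherin that holds adiponectin on heart vessels, was at -0.64 ± 0.25, and Lepr, the leptin receptor, at -0.36 ± 0.51. In the knockout table the 4 differences were -0.74, -0.63, 0.07 and -0.05.

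Cell type markers were read beside these genes. On these scales only differences, not levels, can be checked against the tissue label. Over all genes, 49.2% of differences were below 0 in wild-type CLP and 48.5% in knockout CLP. The wild-type fit called 0.718% of all genes, and the knockout fit with CLP replicate 1 called 2.38%. Capillary endothelium, which also makes Fabp4 and Aqp7, had 11 of 12 markers measured. In knockout CLP against sham all 11 were below 0 (median -2.92), 0 past the test, and in the fit with CLP replicate 1, Cdh5, Kdr, Tie1 and Emcn fell (limma adjusted p from 0.0266 to 0.0461). The mean of the 11 per array ran from 0.59 to 2.22 in knockout sham and from -2.50 to -0.54 in CLP, so the groups did not overlap. In wild type 8 of the 11 were above 0 (median 0.79), with means from -0.86 to 0.15 in sham and -0.09 to 0.69 in CLP. Macrophages can express Fabp4 too. Their 12 markers were all above 0 in wild-type CLP (median 1.76), and Tyrobp (2.01 ± 0.19) and Fcer1g (2.03 ± 0.22), signalling adaptors of myeloid cells, rose (SE; limma adjusted p = 0.0290 and 0.0307). Both calls were lost with eBayes and without sham replicate 1, sham replicate 2, Min Dep replicate 1 or Max Dep replicate 1, where 0 genes were called. Only 1 gene was called without Min Dep replicate 3, and 1 with the RNA quality covariate given below. At most 1 of the Tyrobp and Fcer1g calls can have held in either fit. In knockout CLP 10 of the 12 macrophage markers were above 0 (median 2.63), 0 past the test, and 7 rose in the fit with CLP replicate 1. The macrophage mean ran from -1.38 to -0.54 in wild-type sham, -0.17 to 1.14 in wild-type CLP, -0.82 to 0.26 in knockout sham and 1.33 to 2.28 in knockout CLP. Fibroblast markers, 12 of 12 measured, were all below 0 in wild-type CLP (median -1.53), with means of 0.90 to 1.09 in sham and -1.57 to 0.28 in CLP, and 9 of 12 were below 0 in the knockout (median -1.31), where Gsn (-3.33, limma adjusted p = 0.0181) and Serpinf1 (-2.59, limma adjusted p = 0.0409) fell in the fit with CLP replicate 1. Markers of cardiomyocytes (12), skeletal muscle (10), mesothelium and epicardium (7) and lymphocytes (8) had 0 members past the test in either genotype, with medians of -0.18, 0.13, -0.63 and -0.34 in wild-type CLP and -0.24, -0.27, -0.25 and -0.61 in knockout CLP. The part of these cell types in the values of the adipocyte genes was not tested.

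**Figure D5:**
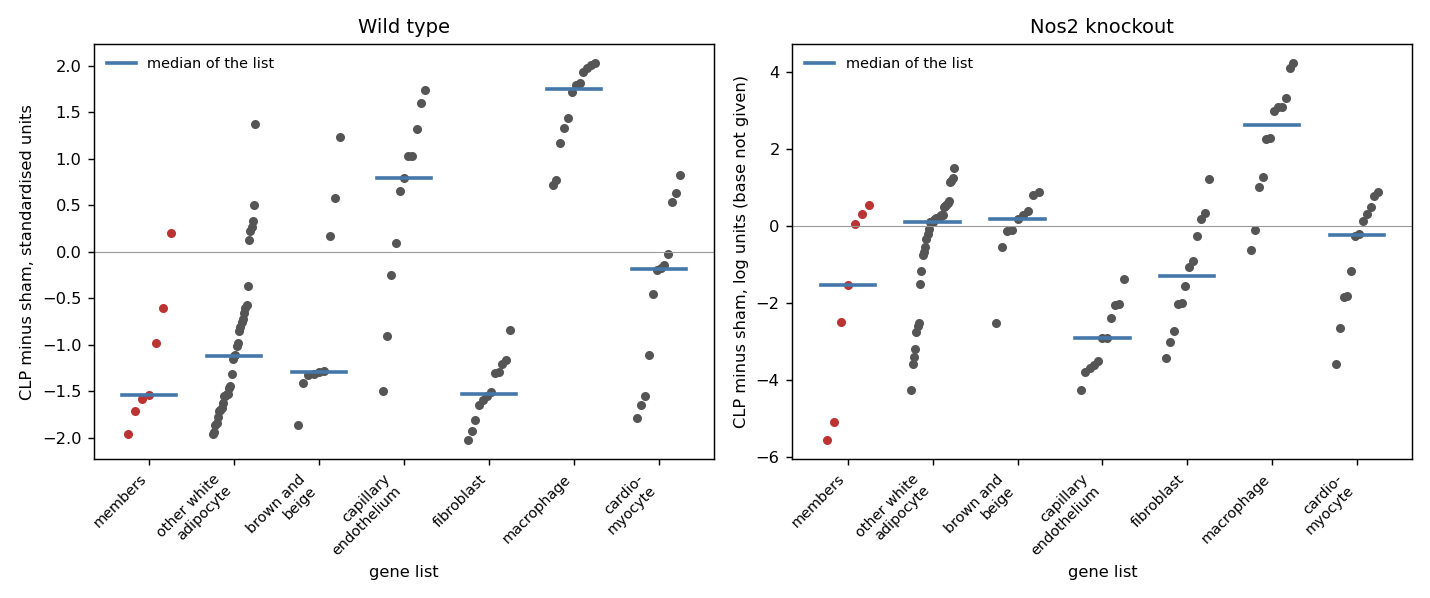
CLP minus sham difference (vertical axis; standardised units on the left, log units on the right) of every measured gene in 7 lists (horizontal axis), with wild type on the left and knockout (5 arrays) on the right; each point is 1 gene and the blue line is the median of the list. The members (red) and other white adipocyte genes lie mostly below 0 in wild type (medians -1.54 and -1.11), while in the knockout the other white adipocyte genes centre near 0 (0.11) and capillary endothelium lies below it (-2.92).

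A sign of RNA quality was set beside the members as well. The difference between the 5′ and the 3′ control probe sets of Gapdh and Actb was 0.90 ± 0.75 in wild-type sham, -0.19 ± 0.33 for Min Dep and -0.71 ± 1.19 for Max Dep (SD, n = 3), in standardised units. With it as a covariate, CLP minus sham was -1.71 for Adipoq, -2.33 for Retn, -1.60 for Car3 and -1.74 for Cidec, all as large as without it, but -0.05 for Lep. For Adipoq, Retn, Car3 and Cidec the limma adjusted p was then 0.519, 0.263, 0.552 and 0.488. Without the covariate it was 0.257, 0.0886, 0.272 and 0.201, so precision was lower with it. The control difference itself differed between sham and CLP. The control difference was -1.30 ± 0.67 in knockout CLP and -0.26 ± 1.53 in knockout sham (SD, n = 3), and its part in the knockout values was not tested.

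The genes whose values most resembled the mean of the 7 members over the 9 wild-type arrays were, in order, Epn3, Muc5b, H2-Q10, Tmem45b, Cebpa, Tagln, Cdo1, Aox3, Slc25a35 and Gstz1. Pearson's r ran from 0.95 for Epn3 to 0.94 for Gstz1, and from 0.89 (Tmem45b) to 0.74 (Gstz1) without sham replicates 2 and 3. Among the top 50, 5 were other white adipocyte genes (Cebpa, Adig, Nrg4, Aoc3 and Scd1) and 1 was Ucp1. That white adipocyte list holds 35 of the 12393 genes. Over the 6 knockout arrays the 10 were Ezh1, Repin1, Spry1, Klf9, Klra1, Cox4i2, Galnt16, Dus3l, Per2 and Sec14l2, with r from 0.99 to 0.98. The knockout mean is set by Fabp4, Aqp7 and Retn, whose spans of 7.52, 6.07 and 8.79 units exceed those of the other 4 members, and of its top 50 only Pck1 was a listed white adipocyte gene. These lists are descriptions over 9 and 6 arrays that share 1 table each.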

How the data were processed

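Total RNA of 15 mouse hearts was read on short oligonucleotide arrays, and the 9 wild-type and 6 knockout arrays were deposited in separate tables of 22690 probe sets. The wild-type values are a deposited score, standardised per array and per probe set, and the knockout values are a deposited score that behaves as a centred log difference; both descriptions come from the values themselves. Which software made them was not stated in the sources used here. Groups follow the titles of the samples; replicates were numbered in accession order, which pairs nothing. No intensities were used, so signal over background is unknown. Precision is limited by the 3 arrays in a group.

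Control probe sets (64) were left out; the platform annotation paired 20380 probe sets with 1 gene, 691 with several and 1555 with none. Probe sets of a gene were averaged. Linear models (limma 3.58.1, R 4.3.3) were fitted across all genes, with Benjamini-Hochberg adjustment over 12393 genes (threshold 0.05). Wild-type statistics were unmoderated on 6 residual degrees of freedom, since moderation pulls rows of equal SD together. The knockout fit used eBayes on 5 arrays, without CLP replicate 1. Scripts were tested on simulated data. The CLP comparison in wild type is the mean of both CLP groups minus sham.

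The members and lists were chosen with earlier results of these data known. Genes named beside the members are list genes that passed a test, some adipocyte genes, receptors, Ucp1, Cidea, sex-linked genes, and the 10 genes most like the mean of the members in each table. Alternatives were eBayes, undoing the array standardisation, the control difference as covariate, 2-group fits, probe sets one by one or their median, and leaving out each array.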

Additional observations from a re-analysis of the deposited data

Results flagged for a closer look

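Adipoq was noted because its CLP minus sham differences have opposite signs in the genotypes, -1.58 standardised units in wild type and 0.55 log units over all 6 knockout arrays; this contrast between genotypes was not tested, and the tables differ in scale and array model. Knockout CLP replicate 1, which was left out of the 5-array fit and enters only the values given with it, was noted for 2 members that lay above all knockout sham arrays there: Adipoq at 0.24 and Car3 at -0.11. This was not particular to that array. CLP replicates 2 and 3 also lay above all sham arrays for Adipoq (0.35 and 0.16), as did replicate 3 for Car3 (0.54).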

How the results depend on the processing

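No paired analysis was possible because the replicate numbers only name the arrays. No member passed in wild type under any alternative run. Counts of all genes moved far more. For wild-type CLP against sham, 89 genes became 0 with eBayes, 179 with the array standardisation undone, 1 with the control covariate, 481 when probe sets were tested singly, and 0 to 186 with 1 array left out. For Max Dep against sham, 56 became 0 with eBayes and with the covariate, 7 in the 2-group fit, 210 by probe set, and 0 to 26 with 1 array left out. For Min Dep against sham, 7 became 0 with eBayes, 27 undone, 2 with the covariate, 4 with probe set medians, 1 in the 2-group fit, 105 by probe set, and 0 to 68 with 1 array left out. Max Dep against Min Dep went from 0 to 2 undone and 0 to 1 with 1 array left out. Knockout counts went from 0 to 295 genes, and from 0 to 2 members, with CLP replicate 1.

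Signs turned only for differences that were small or split between probe sets; the cause was not tested. For CLP, Max Dep and Min Dep against sham, Fabp4 1425809_at gave 1.06, 1.20 and 0.92, and Aqp7 1418848_at gave -0.81, -1.04 and -0.58. Aqp7 in Max Dep was -0.028 undone and -0.18 with the covariate, and Lep in Min Dep was 0.50 with the covariate. Fabp4 in Max Dep against Min Dep was -0.18 undone, -0.038 with the covariate and -0.35 by 1424155_at. With 1 array left out, CLP against sham ran from -0.023 to 0.50 for Aqp7 and from -1.01 to 0.0014 for Fabp4; Max Dep against sham from -0.99 to 0.064 for Fabp4 and from -0.21 to 0.31 for Aqp7; Min Dep against sham from -0.68 to 0.30 for Lep. Max Dep against Min Dep ran from -0.36 to 0.70 for Fabp4, -0.56 to 0.0015 for Aqp7, -0.72 to 0.057 for Retn and -0.60 to 0.022 for Cidec. Knockout CLP against sham ran from -0.10 to 0.30 for Lep and -0.35 to 0.97 for Car3.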
